A study of Mus musculus with 3 samples.

Results

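The miR-34 family of mouse microRNAs (miRNAs) comprised 5 mature members in the deposited table, mmu-miR-34a-5p, mmu-miR-34b-5p, mmu-miR-34b-3p, mmu-miR-34c-5p and mmu-miR-34c-3p, out of 1097 items in all. Their rows were picked by name, leaving aside any suffix for a shifted or changed sequence, and each of the 5 names had 1 row. The members and the lists used below were chosen with earlier results of these data known. The measurements came from small RNA sequencing of wild-type (WT) mouse fibro/adipogenic progenitors (FAPs), the resident stromal progenitors from which fibroblasts and fat cells of muscle arise. The cells were taken straight from muscle and were not cultured. There were 3 libraries, 1 for each condition: muscle without injury (normal), muscle injected with cardiotoxin, a snake toxin that kills fibres and sets off regeneration, 5 days earlier, and muscle 3 weeks after sciatic denervation, in which the leg muscles lose their nerve. No source used here gives the number of animals pooled for a library or the way the FAPs were isolated. With 1 library per condition there is no spread between animals, no test between conditions was run, and every difference below describes these libraries.

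miRNAs are short RNAs that bind partly matching sites in messenger RNAs through a seed near their 5′ end and lower the output of those messages. The miR-34 genes are direct transcriptional targets of the tumour suppressor p53, and their miRNAs repress messages for the cell cycle and survival, such as those of Cdk6, Ccnd1, Met and Bcl2. miR-34a is made from its own gene and is found in many tissues, whereas miR-34b and miR-34c come from a shared precursor transcript that is known for high levels in testis and in multiciliated epithelium. The label of the family as p53 targets could not be checked here, since neither p53 nor messenger RNA was measured.

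Each hairpin precursor gives a 5p miRNA from its 5′ arm and a 3p miRNA from its 3′ arm. The 3 precursors are shown to place the arms that were counted, from RefSeq on GRCm38.p6, with the deposited 5p and 3p sequences in capitals.
Mir34a: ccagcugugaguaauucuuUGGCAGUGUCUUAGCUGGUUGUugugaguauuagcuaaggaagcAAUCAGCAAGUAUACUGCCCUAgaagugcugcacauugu
Mir34b: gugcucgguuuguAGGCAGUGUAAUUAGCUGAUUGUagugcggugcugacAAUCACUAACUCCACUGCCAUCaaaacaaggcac
Mir34c: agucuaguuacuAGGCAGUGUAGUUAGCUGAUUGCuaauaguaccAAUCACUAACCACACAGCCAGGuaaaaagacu

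Mir34a lies on the plus strand at chr4:150068454-150068555, and its last 17 bases overlap the exon of Gm37795, an unclassified transcript model in GENCODE M21. Mir34b, on the minus strand at chr9:51103562-51103645, and Mir34c, on the minus strand at chr9:51103034-51103110, are separated by 451 bases. Both lie within the span of Btg4, a protein-coding gene on the opposite strand, and overlap none of its exons. The mature sequences are given as the deposited rows hold them, to show which members share a seed, with the seed (bases 2 to 8) in capitals.
miR-34a-5p: tGGCAGTGtcttagctggttgt
miR-34b-5p: aGGCAGTGtaattagctgattgt
miR-34c-5p: aGGCAGTGtagttagctgattgc
miR-449a-5p: tGGCAGTGtattgttagctggt
miR-34b-3p: aATCACTAactccactgccatc
miR-34c-3p: aATCACTAaccacacagccagg
miR-34a-3p: aATCAGCAagtatactgcccta

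The 3 5p members share 1 seed, which miR-449a-5p, a relative from another gene, also carries. miR-34b-5p differs from miR-34c-5p by G11A and C23T, counted from the 5′ end with the base of miR-34c-5p first, so both changes lie outside the seed. The 2 3p members share a different seed and their first 10 bases. miR-34a-3p, the other arm of miR-34a and not a member, has another seed again. The sequences of 4 of the 5 members were identical to their RefSeq entries, and miR-34c-5p was taken from the deposited row.

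Levels are counts per 1000000 counts of a library (CPM), taken over library totals of 4471365 (normal), 3636249 (cardiotoxin) and 7193088 (denervated). All members are 22 or 23 bases long, so their levels were not scaled for length, and how efficiently each sequence enters a library was not measured. Intervals in parentheses are 95% and cover counting error only. The label FAPs was compared with marker miRNAs. The 11 measured mesenchymal markers summed to 331301 CPM in normal, 309161 CPM in denervated and 25566 CPM in cardiotoxin. The miR-100-5p row repeats the counts of miR-99a-5p, and without it the sums were 260687, 255004 and 24125 CPM. The 8 leukocyte markers summed to 422, 762 and 24010 CPM in the same order, with miR-223-5p and miR-511-3p at 0 in normal and denervated. The library labelled cardiotoxin thus stood apart, with most mesenchymal markers far below normal and the leukocyte markers far above. In it, miR-21a-5p alone took 53.9% of all counts, against 2.14% in normal and 10.4% in denervated.

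miR-34a-5p, the main product of the miR-34a gene, was at 130 CPM (120 to 141) in normal, 3117 CPM (3060 to 3175) in cardiotoxin and 113 CPM (105 to 121) in denervated. It was high in 1 library, cardiotoxin, and close to the same level in the other two. Among mature mouse miRNAs with a count it ranked 189 of 521 in normal, 46 of 483 in cardiotoxin and 187 of 567 in denervated. miR-34a-3p, which is usually the lesser product of the hairpin, had 36 counts (9.90 CPM) in cardiotoxin and 0 counts in the other libraries. Where a library had no count, 3 counts stood in for it (0.671 CPM in normal, 0.825 in cardiotoxin and 0.417 in denervated). On that basis miR-34a-3p was 14.8-fold higher in cardiotoxin than in normal, and its counting interval reaches down to 11.4-fold. The 3p arm made up 0.317% (0.222 to 0.438, Clopper-Pearson) of the miR-34a counts in cardiotoxin. In normal (583 miR-34a counts) and denervated (812) the interval of this share reached 0.631% and 0.453%, and so includes the share seen in cardiotoxin.

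miR-34c-5p, the most abundant product of the miR-34b/c gene pair, was at 708 CPM (684 to 733) in normal, 47.3 CPM (40.5 to 54.9) in cardiotoxin and 2595 CPM (2558 to 2632) in denervated. It was thus lowest in cardiotoxin, where miR-34a-5p was highest, and highest in denervated. The intervals of miR-34c-5p did not overlap between any of the libraries. The share of all items for which this held was not counted. miR-34c-5p ranked 97 of 521 mature mouse miRNAs in normal, 204 of 483 in cardiotoxin and 49 of 567 in denervated. miR-34c-3p, from the other arm, had 6 counts (1.34 CPM) in normal, 0 in cardiotoxin and 89 (12.4 CPM) in denervated.

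miR-34b-3p was at 23.5 CPM (19.2 to 28.4) in normal, 0 in cardiotoxin and 77.3 CPM (71.0 to 84.0) in denervated. miR-34b-5p was at 3.13 CPM (1.71 to 5.25) in normal, 0 in cardiotoxin and 22.9 CPM (19.6 to 26.7) in denervated. All 4 products of the gene pair therefore had the same order, denervated above normal above cardiotoxin, although 3 of them were at a count of 0 in cardiotoxin, where counting error allows up to 1.01 CPM. For miR-34c-3p the normal level (0.492 to 2.92 CPM) could not be told from that limit.

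**Figure D1:**
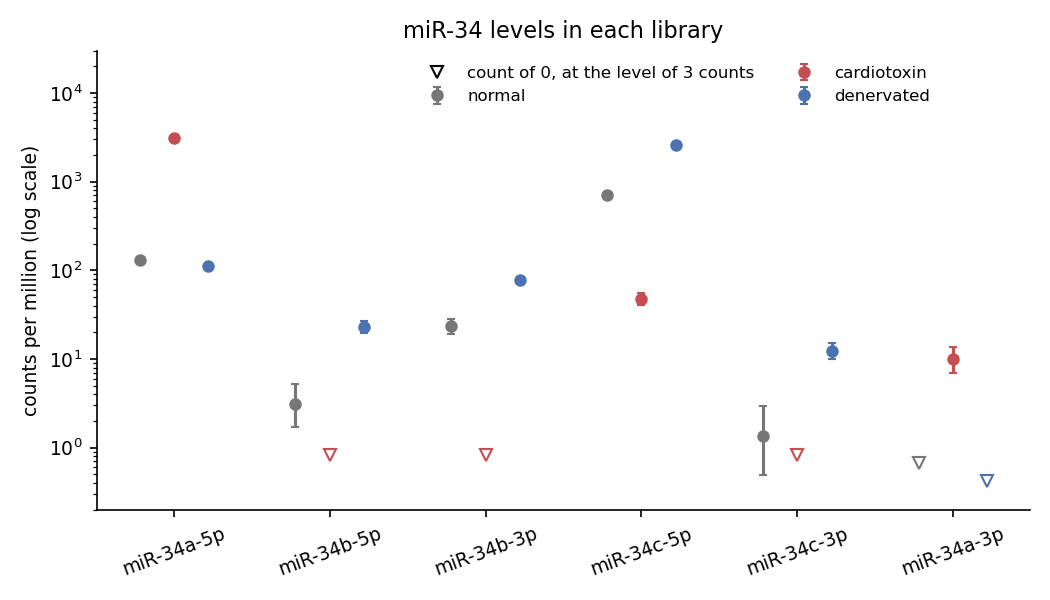
Level of each miR-34 member and of miR-34a-3p in the normal, cardiotoxin and denervated libraries, in CPM on a log axis; bars are 95% counting intervals, and open triangles mark a count of 0, drawn at the level of 3 counts. miR-34a-5p is highest in cardiotoxin (3117 CPM), whereas miR-34c-5p is highest in denervated (2595 CPM) and lowest in cardiotoxin (47.3 CPM).

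Cardiotoxin was set against normal to ask how the family differed in the library labelled as FAPs of regenerating muscle. As given above, its mesenchymal and leukocyte markers were far from those of normal. miR-34a-5p was 23.9-fold higher (21.996 to 26.0), a log2 ratio of CPM plus 1 of 4.57. miR-34c-5p was 15.0-fold lower (12.8 to 17.6), a log2 ratio of -3.88. miR-34b-3p was 28.5-fold lower and miR-34b-5p 3.80-fold lower by the 3-count level, and their counting intervals reach down to 22.7-fold and 2.70-fold. For miR-34c-3p the 3-count level gave 1.63-fold and its interval included no difference.

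Items entered the counts below when their mean reached 10 CPM, and were counted as at least 2-fold apart by the log2 ratio of CPM plus 1, which understates the fold of low items. By the mean, 3 of the 5 members passed, miR-34a-5p, miR-34b-3p and miR-34c-5p. miR-34b-5p (mean 8.69 CPM) and miR-34c-3p (mean 4.57 CPM) did not. Of the 3, 1 was at least 2-fold higher in cardiotoxin and 2 at least 2-fold lower. Over all 446 items that passed, 32.3% were at least 2-fold higher and 39.5% at least 2-fold lower (71.7% in either direction), so being 2-fold apart was common in this comparison. By log2 ratio miR-34a-5p ranked 15 of 446 from the highest, miR-34c-5p 353 and miR-34b-3p 369. The median of all items was -0.09.

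Marker miRNAs of other cells differed in the same comparison. All 8 leukocyte markers were at least 2-fold higher and their sum was 56.9-fold higher, beside miR-34a-5p at 23.9-fold. Of the 11 mesenchymal markers, 10 were at least 2-fold lower, with miR-214-5p at a count of 0, and their sum was 13.0-fold lower, beside miR-34c-5p at 15.0-fold. One of the 11, the miR-100-5p row, repeats the counts of miR-99a-5p, and without it the sum was 10.8-fold lower. Both endothelial markers were at least 2-fold higher (sum 3.56-fold, 5401 to 19251 CPM). Of the epithelial markers 2 of 5 were higher and 2 lower, with miR-205-5p at a count of 0 and the sum of all 7 measured 3.02-fold lower. Of the muscle fibre markers 2 of 5 were higher and the sum 1.02-fold higher, with miR-499-5p at a count of 0. The part of cell composition in the miR-34 differences was not tested, and in such bulk libraries fewer cells of a type and less RNA per cell cannot be told apart. The marker counts and sums are given for library totals only. The other scalings left the directions of miR-34a-5p and miR-34c-5p as they were. Their log2 ratios ran from 4.28 to 5.65 for miR-34a-5p and from -4.16 to -2.81 for miR-34c-5p. The highest value of each came from the total without miR-21a-5p, which shifted the median of all items by 1.06.

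Denervated was set against normal to ask how the family differed in FAPs of muscle that had lost its nerve. miR-34c-5p was 3.66-fold higher (3.53 to 3.81), miR-34b-3p 3.29-fold higher (2.67 to 4.09), miR-34b-5p 7.33-fold higher (4.24 to 13.7) and miR-34c-3p 9.22-fold higher (4.07 to 25.8). Each product of the gene pair was higher, with a counting interval that left out no difference. How many of all items did so was not counted, and miR-34b-5p and miR-34c-3p rest on 14 and 6 counts in normal. miR-34a-5p was 1.16-fold lower (1.04 to 1.29), an interval that also left out no difference, and its log2 ratio ran from -0.21 to -0.08 over the scalings.

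Of the 3 members that passed the filter, 2 were at least 2-fold higher in denervated and 0 at least 2-fold lower, where 6.28% of the 446 items were at least 2-fold higher and 6.28% at least 2-fold lower (12.6% in either direction). miR-34c-5p ranked 11 of 446 from the highest and miR-34b-3p 15, whereas miR-34a-5p ranked 271, and the median of all items was -0.09. In this comparison 5 of 5 muscle fibre markers that passed the filter were at least 2-fold higher (sum of all 6 measured 3.49-fold higher, 905 to 3162 CPM). Of the leukocyte markers 4 of 8 were higher (sum 1.80-fold higher). Of the epithelial markers 4 of 5 were lower (sum of all 7 measured 1.93-fold lower, 909 to 471 CPM), and both endothelial markers were lower (sum 3.26-fold). 1 of 11 mesenchymal markers was lower (sum 1.07-fold, or 1.02-fold without the repeated miR-100-5p row). The part of these cells in the miR-34b/c difference was not tested. miR-449a-5p, which like miR-34b and miR-34c is abundant in multiciliated epithelium, stood at 4.47 CPM in normal, 1.38 CPM in cardiotoxin and 4.59 CPM in denervated. It differed by 1.03-fold (0.571 to 1.89, denervated over normal), and the other miR-449 names sought had no row.

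**Figure D2:**
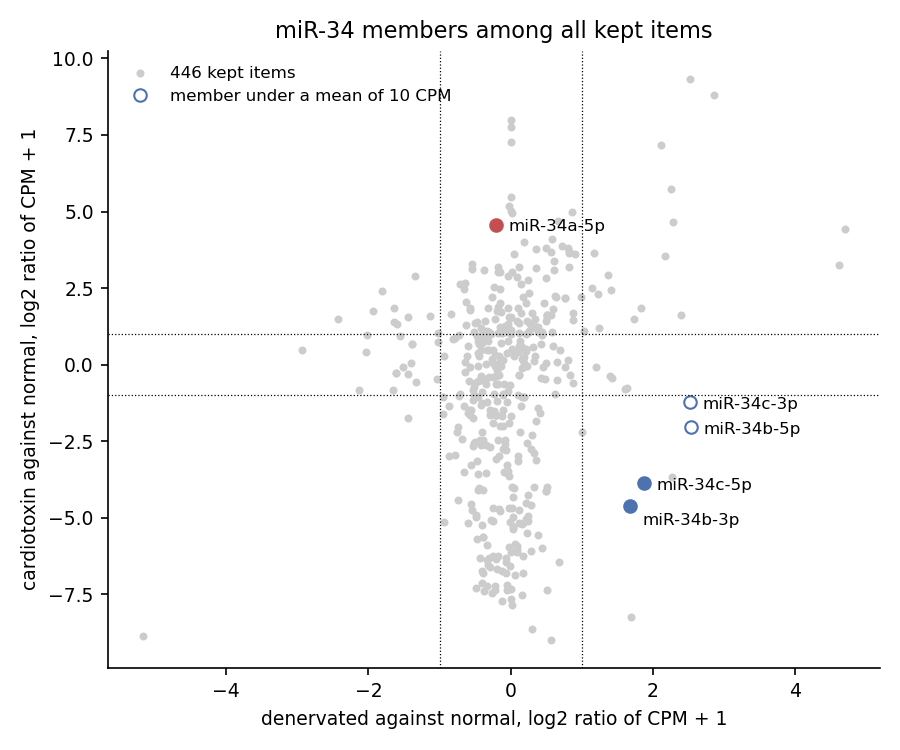
Log2 ratio of CPM plus 1 for denervated against normal (x axis) and cardiotoxin against normal (y axis), for the 446 kept items in grey, miR-34a-5p in red and the miR-34b/c products in blue, open where the member was under a mean of 10 CPM; dotted lines mark 2-fold, and both axes share the normal library. miR-34a-5p lies at 4.57 on the y axis and -0.21 on the x axis, and miR-34c-5p at -3.88 and 1.87.

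Set directly against each other, cardiotoxin was 27.6-fold above denervated for miR-34a-5p (25.7 to 29.7) and 54.9-fold below it for miR-34c-5p (47.2 to 64.1). By the 3-count level miR-34b-3p was 93.7-fold, miR-34b-5p 27.8-fold and miR-34c-3p 15.0-fold lower in cardiotoxin. Their counting intervals reach down to 75.9-fold, 22.4-fold and 11.9-fold. Of the 3 members kept, 1 was at least 2-fold higher and 2 at least 2-fold lower, against 33.6% and 38.6% of all 446 items (72.2% in either direction). The leukocyte markers were higher in cardiotoxin in 8 of 8 (sum 31.5-fold), and the mesenchymal markers lower in 8 of 11 (sum 12.1-fold). Without the repeated miR-100-5p row, 7 of 10 mesenchymal markers were lower (sum 10.6-fold). Both endothelial markers were higher (sum 11.6-fold), the muscle fibre markers lower in 4 of 5 (sum 3.41-fold), and 3 of 5 epithelial markers higher and 2 lower (sum 1.56-fold lower).

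miR-34a was then compared with the gene pair inside each library, a ratio that no scaling of the library can change. miR-34a-5p made up 15.0% (13.9 to 16.2, Clopper-Pearson) of the counts of the 5 members in normal, 98.5% (98.3 to 98.7) in cardiotoxin and 4.003% (3.74 to 4.28) in denervated. miR-34c-5p made up 81.7% (80.5 to 82.9), 1.49% (1.28 to 1.73) and 92.0% (91.6 to 92.4) in the same order. The main miR-34 product was therefore miR-34c-5p in normal and denervated and miR-34a-5p in cardiotoxin. Relative to miR-34c-5p, miR-34a-5p was 358-fold higher in cardiotoxin than in normal (301 to 426, Woolf interval of the odds ratio, log2 8.48). It was 4.23-fold lower in denervated than in normal (3.78 to 4.74, log2 -2.08), and 1515-fold higher in cardiotoxin than in denervated (1283 to 1789, log2 10.56).

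The gene pair kept a steadier make-up between normal and denervated. The miR-34b arms held 3.61% (3.00 to 4.31) of all miR-34b and miR-34c counts in normal and 3.70% (3.44 to 3.98) in denervated, and 0 of 172 counts in cardiotoxin, which allows up to 2.12%. Relative to miR-34b-3p, miR-34c-5p differed by 1.11-fold between denervated and normal, and the interval of the log2 ratio, -0.15 to 0.46, included 0. The less abundant arm of each hairpin was larger in share in denervated. miR-34b-5p made up 11.8% (6.58 to 19.0) of the miR-34b counts in normal and 22.9% (19.9 to 26.1) in denervated, a 2.23-fold difference in odds against miR-34b-3p (1.24 to 3.99). miR-34c-3p made up 0.189% (0.0694 to 0.411) and 0.475% (0.381 to 0.584) of the miR-34c counts, a 2.52-fold difference in odds (1.10 to 5.76). The normal values rest on 14 and 6 counts.

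Because miRNAs with a shared seed can bind the same sites, the rows carrying the seed of miR-34a-5p were also summed. There were 6 such rows, miR-34a-5p, miR-34b-5p, miR-34c-5p, miR-449a-5p and 2 rows named after opossum miR-34b-5p. Their sum was 858 CPM in normal, 3166 CPM in cardiotoxin and 2807 CPM in denervated. The seed was thus 3.69-fold higher (3.56 to 3.83) in cardiotoxin and 3.27-fold higher (3.16 to 3.39) in denervated than in normal, although different genes supplied it. miR-34a-5p gave 98.5% of the sum in cardiotoxin, and miR-34c-5p gave 92.5% of it in denervated and 82.5% in normal. The cardiotoxin sum was 1.13-fold above that of denervated, but this order turned with TMM factors (1.16-fold lower), DESeq2 size factors (1.09-fold lower) and the authors' signal (1.16-fold lower), and it was 2.19-fold higher in the total without miR-21a-5p. Against normal the sum was higher under every scaling tried, by 3.02-fold to 7.83-fold in cardiotoxin and 3.27-fold to 3.57-fold in denervated. The seed of the 3p members, carried by miR-34b-3p and miR-34c-3p only, summed to 24.8 CPM in normal, 0 in cardiotoxin and 89.7 CPM in denervated.

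**Figure D3:**
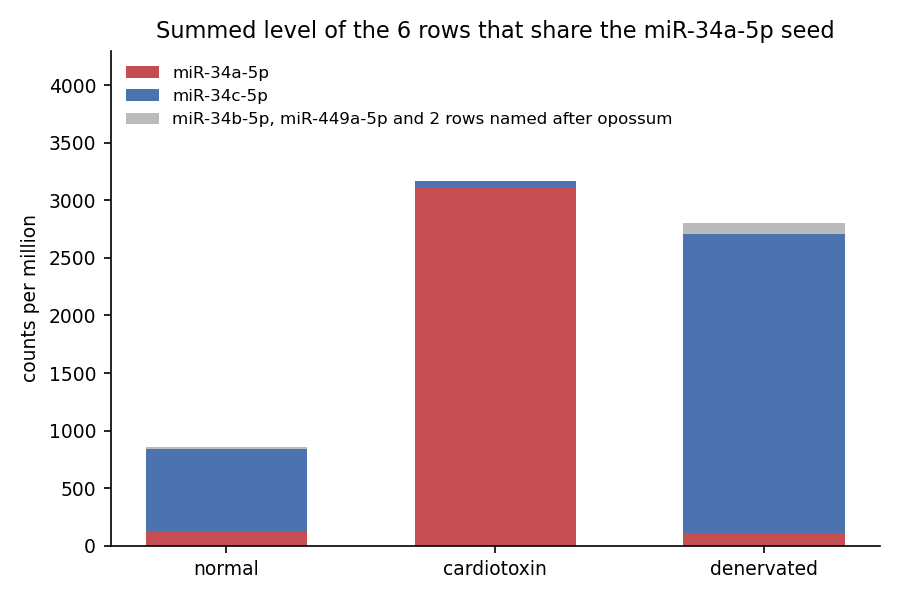
Summed level, in CPM, of the 6 rows that carry the seed of miR-34a-5p in each library, split into miR-34a-5p (red), miR-34c-5p (blue) and the other 4 rows (grey). The cardiotoxin bar (3166 CPM) is almost all miR-34a-5p, and the denervated bar (2807 CPM) is almost all miR-34c-5p.

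Other miRNAs tied to p53 were followed as lists. Of 12 entries for miRNAs that p53 raises, by transcription or by processing of their precursors, 9 passed the filter. In cardiotoxin 4 of these were at least 2-fold higher than normal and 5 at least 2-fold lower, with a median log2 ratio of -1.15, beside 32.3% higher and 39.5% lower over all items. The smallest log2 ratios were 1.01 among the higher and -1.15 among the lower. This split was not recounted under the other scalings. They shifted the median of all items in cardiotoxin by -0.28 (TMM factors) to 1.06 (total without miR-21a-5p). Shifts of that size take the entries at 1.01 and -1.15 under 2-fold, so the split depends on the scaling. miR-143-3p, of the miR-143 and miR-145a gene pair active in smooth muscle and other mesenchymal cells, was 5.33-fold lower (40874 to 7665 CPM), and miR-145a-5p 4.57-fold lower. miR-22-3p, which is also on the mesenchymal list, was 2.49-fold lower, and miR-16-5p, a miRNA that restrains the cell cycle, 2.53-fold higher (1067 to 2696 CPM). In denervated 0 of the 9 were at least 2-fold higher and 1, miR-200c-3p, was lower (3.999-fold), with a median of -0.53, beside 6.28% in each direction over all items. Over all items the median was -0.09 in each of these comparisons.

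Of the miR-17-92 cluster, which p53 represses and which favours proliferation, all 6 members were at least 2-fold higher in cardiotoxin (median 3.52), beside 32.3% of all items. miR-92a-3p was 4.63-fold higher (959 to 4438 CPM) and miR-20a-5p 14.2-fold higher (157 to 2227 CPM), both in the direction of miR-34a-5p. In denervated 1 of 6, miR-19a-3p, was at least 2-fold higher by the log2 ratio of CPM plus 1 (median 0.84), beside 6.28% of all items. The folds of CPM itself were 2.32 for miR-19a-3p, 2.09 for miR-18a-5p and 2.002 for miR-19b-3p, so the count depends on the pseudocount. Of 4 miRNAs that target the p53 message, 3 passed the filter. miR-125b-5p, which is on the mesenchymal list too, was 87.4-fold lower in cardiotoxin, whereas miR-30d-5p (1.05-fold higher) and miR-25-3p (1.32-fold higher) lay within 2-fold of normal. None of the 3 was 2-fold apart in denervated (median -0.07), where 12.6% of all items were, and 1 of 3 was in cardiotoxin, where 71.7% were.

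**Figure D4:**
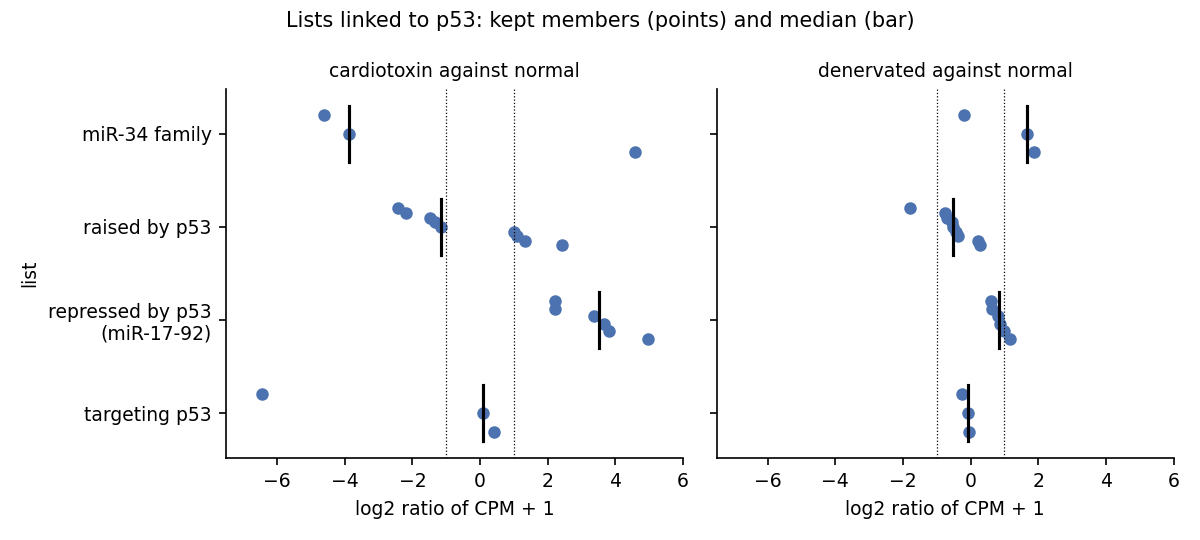
Log2 ratios of CPM plus 1 against normal for the kept members (points) and the median (bar) of 4 lists, the miR-34 family, miRNAs raised by p53, the miR-17-92 cluster repressed by p53, and miRNAs that target p53; dotted lines mark 2-fold. In cardiotoxin 4 entries of the list raised by p53 lie higher and 5 lower, and all 6 miR-17-92 members are higher, beside 32.3% higher and 39.5% lower over all items. These counts use library totals, and the split of 4 and 5 depends on the scaling.

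Likeness of pattern was measured as the distance between pairs of log2 ratios (cardiotoxin against normal and denervated against normal) over the 3 libraries, among the 364 mature mouse miRNAs that passed the filter. The nearest to miR-34a-5p were miR-342-3p (distance 0.43), miR-511-5p (0.49), miR-7a-5p (0.65), miR-147-3p (0.70) and miR-18a-3p (0.88). miR-342-3p, a leukocyte marker and the nearest, was at 234 CPM in normal, 7220 in cardiotoxin and 238 in denervated. miR-7a-5p was at 91.2, 3363 and 89.6 CPM. The nearest to miR-34c-5p was miR-34b-3p, from the same gene pair (distance 0.76). The others were miR-376a-3p (1.37), miR-187-3p (1.55), miR-369-5p (1.68) and miR-335-5p (1.69). These 4 had log2 ratios between 0.24 and 0.51 in denervated, below the 1.87 of miR-34c-5p. miR-511-5p was at a count of 0 in normal and denervated, and miR-34b-3p, miR-376a-3p and miR-369-5p were at 0 in cardiotoxin, so their distances are set in part by the pseudocount. With only 3 libraries, such distances describe a pattern and no more.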

How the data were processed

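Small RNA libraries were made with a TruSeq kit, per the labels' protocols. The authors deposited estimated counts per miRNA row, marked raw per the file headers; 87.9% to 88.4% of values were whole within 1e-06 and the others were fractions. They also deposited a normalized signal, which was the count times 1 factor per library (1.11 normal, 1.12 cardiotoxin, 0.746 denervated), and a chi-square p-value per row, not used here. No source used here names the aligner, the miRBase release or the build, and the submitters' processing notes list StringTie without a role. The table held 1108 rows; 3 emptied lines are not analysed here. Which rows shared split reads is not stated.

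Rows of one mature mouse name were summed (1097 items), divided by column totals and given as CPM. Log2 ratios used a pseudocount of 1, folds none, and items needed a mean of 10 CPM (446 kept). Fold intervals were exact conditional binomial (Clopper-Pearson) on rounded counts, level intervals exact Poisson, and odds ratios had Woolf intervals, all 95%. They leave out any other error, and because the reads carry no molecular identifiers, several may stem from 1 molecule. No test was run, with 1 library per condition. The interval and ratio code was tested on simulated data. The members and lists were chosen with earlier results of these data known. The text names the members, miR-34a-3p, the miR-449 relatives, up to 4 members per list by mean, and the 5 miRNAs nearest to miR-34a-5p and to miR-34c-5p; miR-200c-3p, miR-18a-5p, miR-19a-3p, miR-19b-3p and single markers were named after their values were seen. Alternatives were TMM factors (edgeR 4.0.16), DESeq2 1.42.0 size factors, a total without miR-21a-5p, the authors' signal, other pseudocounts and other filters. Python 3.11.15, scipy 1.17.1 and R 4.3.3 were used.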

Additional observations from a re-analysis of the deposited data

Results flagged for a closer look

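2 rows named after opossum (mdo) miR-34b-5p stood above normal in denervated, outside the 5 members. The first was at 60.3 CPM in denervated, against 11.7 CPM in normal and 0 in cardiotoxin. Its fold of denervated over normal was 5.13 (3.88 to 7.06). The second was at 11.1 CPM in denervated and at a count of 0 in the other libraries. By the 3-count level it was 16.6-fold higher than normal, and its counting interval reaches down to 13.2-fold. The first differs from mouse miR-34c-5p by C23T alone, its last base, and from mouse miR-34b-5p by A11G alone. The second shares its first 22 bases with miR-34c-5p. The first had the order of libraries seen for miR-34c-5p. The second was also highest in denervated but showed no order between normal and cardiotoxin. The origin of both was not tested. With both added to miR-34c-5p, an alternative chosen after seeing the data, the log2 ratio of miR-34a-5p relative to miR-34c-5p was 8.51 for cardiotoxin against normal, -2.10 for denervated against normal and 10.60 for cardiotoxin against denervated.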

How the results depend on the processing

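The count of members at least 2-fold apart was 3 (cardiotoxin against normal), 2 (denervated against normal) and 3 (cardiotoxin against denervated), and stayed so with TMM factors, DESeq2 size factors, the total without miR-21a-5p, the authors' signal, pseudocounts of 0.5 and 5, and the highest row of a name only. With no filter all 5 members entered and the counts were 5, 4 and 5. These include miR-34c-3p as lower in cardiotoxin than in normal, which rests on the pseudocount. Its 6 counts against 0 gave 1.63-fold by the 3-count level and an interval that included no difference. When the mean had to reach 100 CPM, miR-34b-3p dropped out and the counts were 2, 1 and 2, since fewer members entered. The share of all items at least 2-fold apart was not counted without the filter or at 100 CPM. The counts of members under those filters therefore have nothing to be read against. Each log2 ratio of a member kept its direction in all 126 combinations of member, comparison and setting that gave a value. Filters, pseudocounts and the choice of row cannot turn a direction, nor can a scaling where 1 library has a count of 0. Only the scalings of members counted in both libraries could have done so. Of the values, 26 lay outside the counting interval of the fold, 19 of them by scaling and 7 with a pseudocount of 5. That pseudocount took miR-34b-3p from -4.61 to -2.51 and miR-34b-5p from -2.05 to -0.70, under 2-fold, in cardiotoxin against normal, and miR-34c-3p from 2.51 to 1.45 in denervated against normal. Scaling changed the split of all 446 items against normal in cardiotoxin, from 144 higher and 176 lower to 220 and 135 without miR-21a-5p, and cardiotoxin against denervated from 150 and 172 to 212 and 135 without miR-21a-5p, to 110 and 191 with TMM factors and to 110 and 192 with the authors' signal. The median of all items against normal shifted in cardiotoxin by -0.28 for both the authors' signal and TMM, and by -0.17 with DESeq2 factors, and in denervated by 0.11 with DESeq2 factors and without miR-21a-5p. miR-34a-5p relative to miR-34c-5p moved by less than its counting interval when all miR-34b and miR-34c rows stood for the gene pair (log2 8.54, -2.09 and 10.63). No paired analysis was possible because each condition has 1 library. Depth limits the 3 gene-pair products at a count of 0 in cardiotoxin, whose folds there rest on the 3-count level.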
